A study of Mus musculus with 3 samples.

Results

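The 10 thermogenic and muscle-type oxidative genes were followed through the maturation of 3T3-L1 adipocytes: the cytochrome oxidase subunits Cox7a1, Cox8b and Cox6a2, the oxygen-binding globin Mb, the uncoupling proteins Ucp1, Ucp2 and Ucp3, the mitochondrial creatine kinase Ckmt2, the fatty acid elongase Elovl3 and the deiodinase Dio2. They are 10 of the 20144 genes that could be named on the arrays and are read by 11 of 39429 non-control probes. Every probe whose RefSeq accession belongs to a gene of this set was kept, so 9 genes have 1 probe and Ucp3 has 2. The genes were selected on their levels and detection on these same 3 arrays, so the values below describe the set and test nothing about it.

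3T3-L1 is an established clonal line of mouse preadipocytes that stores fat after hormonal induction, and the study set out to measure gene expression as the fat cells enlarge. Total RNA was taken 2, 8 and 20 days after induction and hybridised to 1 single-colour array per day, on which the brightness of a spot reads the abundance of a transcript. All 3 cultures were induced cells of this line, day 2 standing for cells just past induction and day 20 for prolonged culture. The labels do not give the induction cocktail or the number of dishes, and no uninduced cells were analysed here. Each day has a single array, which leaves the variation of cultures unknown, so all differences are given without a test.

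Brown and beige fat cells burn fuel for heat. In them Ucp1 lets protons leak back across the inner mitochondrial membrane, noradrenaline switches the program on through beta-adrenergic receptors and cyclic AMP, and Dio2 makes active thyroid hormone inside the cell. Cytochrome oxidase, the last enzyme of the respiratory chain, has some subunits in a heart and muscle form and a form found in most tissues; the muscle-type genes Cox7a1 and Cox8b are also active in brown fat and are used there as marker genes. Mb stores and carries oxygen in muscle and also occurs in brown fat, and Ckmt2 passes high-energy phosphate from mitochondria to creatine in muscle.

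The 2 muscle-type subunits with the largest differences from day 2 and the classical brown-fat gene that stayed at background are shown by the 250 bases before their RefSeq start sites (mouse GRCm38.p6), to let the reader see which of the motifs searched these promoters hold. Capitals mark matches on either strand to CANNTG (the E-box), AGGTCA (the nuclear receptor half-site) and TGACG (the cyclic AMP half-site). The windows lie at chr7:30183921-30184170 on the plus strand for Cox7a1, chr7:140900447-140900696 on the minus strand for Cox8b and chr8:83290098-83290347 on the plus strand for Ucp1.
Cox7a1: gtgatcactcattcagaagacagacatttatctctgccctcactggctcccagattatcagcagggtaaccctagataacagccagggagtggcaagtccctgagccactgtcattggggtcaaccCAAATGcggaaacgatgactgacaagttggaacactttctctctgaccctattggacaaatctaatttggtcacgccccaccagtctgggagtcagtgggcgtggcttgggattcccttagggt
Cox8b: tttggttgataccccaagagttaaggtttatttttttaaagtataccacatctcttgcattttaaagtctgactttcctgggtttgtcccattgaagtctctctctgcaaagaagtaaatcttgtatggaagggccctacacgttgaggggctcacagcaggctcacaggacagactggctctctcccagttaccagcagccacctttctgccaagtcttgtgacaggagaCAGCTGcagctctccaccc
Ucp1: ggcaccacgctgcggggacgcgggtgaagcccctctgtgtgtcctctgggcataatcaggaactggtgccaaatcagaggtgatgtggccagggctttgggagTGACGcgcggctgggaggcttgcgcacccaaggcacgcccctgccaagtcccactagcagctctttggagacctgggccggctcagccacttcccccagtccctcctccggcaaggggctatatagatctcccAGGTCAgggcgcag

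Both muscle-type windows held a single match, an E-box, at position 127 for Cox7a1 and 232 for Cox8b, counted from 1 at the 5′ end. The Ucp1 window held no E-box, but a cyclic AMP half-site at 104 and a nuclear receptor half-site at 237. An E-box occurs in 66.2% of the 32851 promoter windows of the same length, AGGTCA in 14.0% and TGACG in 17.8%. The 3 longer motifs, AAGGTCA, AGGTCANAGGTCA and the MEF2-type box, occur in 4.08%, 0.0335% and 3.20% of windows and were in none of the windows of the set. Windows existed for 8 of the 10 genes, with Cox6a2 and Elovl3 unmatched. Among the rest, Ucp3 had AGGTCA at 102 and 207, the second overlapping an E-box. Dio2 had TGACG at 156 and 159, on opposite strands and overlapping each other, and Ucp2 had TGACG at 189. Mb, which has more than 1 window, had AGGTCA at 174 and 114 of overlapping windows and TGACG at 188 of another. These are matches of letters and show no binding.

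Each array had 43020 non-control spots, 0 of them saturated, and 55.3% to 56.9% of the spots were called well above background by the scanner software. Levels below are log2 of the processed intensity minus the log2 of the 75th percentile of the array, so 0 is a bright-end reference and the lowest level well above background was −5.70, −5.76 and −5.91 on days 2, 8 and 20. Intensities are printed unscaled, and that percentile was 662, 636 and 927, so a like level has a brighter intensity on day 20. The SD beside a log2 difference is taken over spots of the probes that each array carries 10 times, and holds spot-to-spot error only. Of the 12 adipocyte markers, 11, 12 and 12 were well above background on days 2, 8 and 20, Lep being the one not so on day 2. Adipoq, the adiponectin gene, was 3.83 higher on day 8 than on day 2 and Fabp4, a fatty acid carrier, differed by −0.05.

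Among the muscle-type cytochrome oxidase subunits, Cox7a1 and Cox8b stood furthest above their day 2 levels. Cox7a1 had intensities of 412, 77972 and 82749 on days 2, 8 and 20, well above background on every array. As levels these were −0.68, 6.94 and 6.48. Day 2 was the low array and the later days were both high. Cox7a1 was 197-fold higher on day 8 than on day 2, a log2 difference of 7.62 (SD 0.073), which was the 6th highest of 12044 genes measured on both days. Against day 2, day 20 was 143-fold higher (log2 difference 7.16, SD 0.075).

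Cox8b was likewise bright on both later days, but its day 2 signal was not well above background. Its intensity was 2.88 on day 2, where the scanner software's own error estimate was also 2.88, then 20727 on day 8 and 22358 on day 20. Against day 2, the bound of Cox8b was at least 1690-fold higher for day 8 and at least 1251-fold higher for day 20; these were the largest of the 792 and of the 686 such lower bounds. With the normexp background correction in place of the scanner software's, the log2 bounds were 8.27 for day 8 and 8.04 for day 20, against 10.72 and 10.29 here. Such a bound takes the dim array's lowest level well above background in place of the dim value, unless the dim value is itself higher.

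Between the later days the differences of these 2 subunits were small. Day 20 minus day 8 was −0.46 (SD 0.074) for Cox7a1 and −0.43 (SD 0.068) for Cox8b on the log2 scale. The sign of both depends on the scaling: with the spike-in RNAs as the scale they were 0.21 and 0.23, and Cox7a1 was also above 0 with quantile normalization (0.06) and with another background correction (0.08). The spike-in scale moved the median of all genes measured on both days to 0.62, against −0.05 with the 75th percentile. Both genes lay below the median on either scale, but each scale is 1 constant per array and cannot change that order. With quantile normalization the median was 0.04 and with the other background correction 0.03. Cox7a1 lay above both of these medians, and Cox8b lay below them at −0.21 and −0.23.

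Cox6a2, whose product is a heart and muscle subunit, was higher on each later day. Its intensity was 408, 1173 and 3678 on days 2, 8 and 20, each well above background and each above the last. Day 8 was 2.99-fold higher than day 2 (log2 difference 1.58, SD 0.072) and day 20 was 2.15-fold higher than day 8 (1.1, SD 0.077). From day 2 to day 20 the difference was 6.44-fold. In the gene annotation Cox6a2 overlaps Itgad, an integrin gene, whose own probe was well above background only on day 8.

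**Figure D1:**
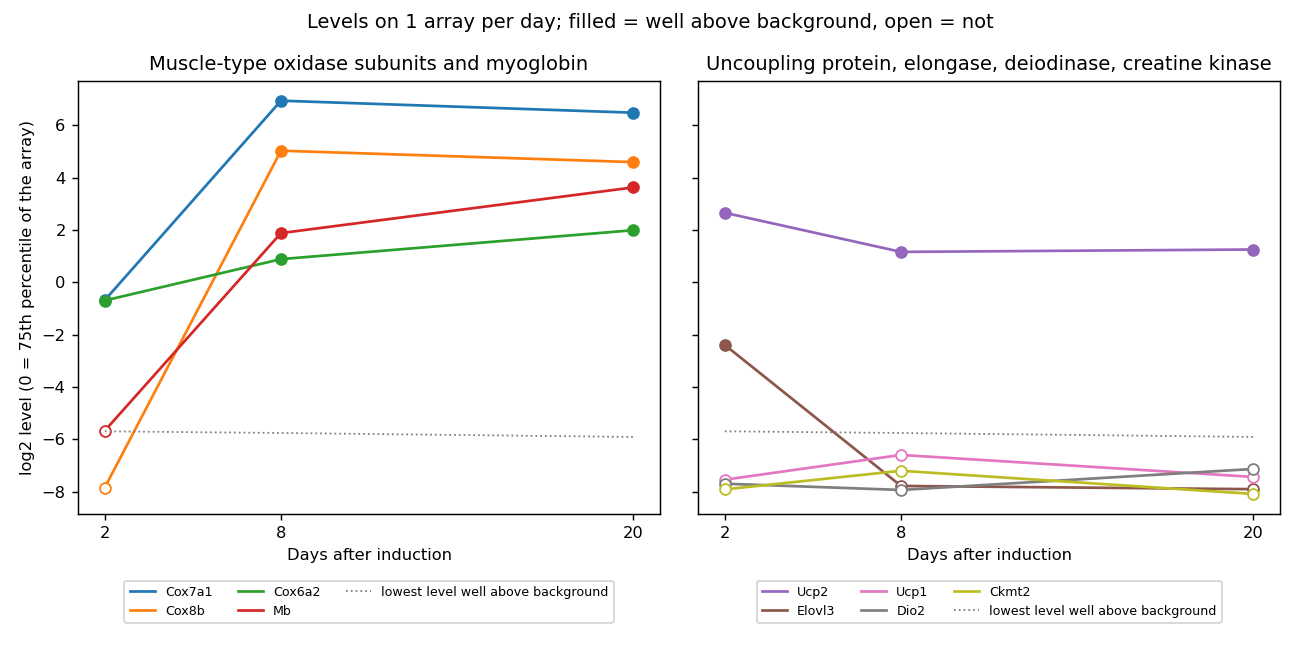
Log2 level (0 is the 75th percentile of the array) against days after induction for 9 of the 10 genes, Ucp3 being plotted with its own probes; each point is 1 array, filled where well above background, and the dotted line is the lowest level well above background. The 3 oxidase subunits and Mb lie highest on day 8 or 20, Ucp2 and Elovl3 lie highest on day 2, and Ucp1, Dio2 and Ckmt2 lie under the dotted line on all 3 days.

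The differences were not matched by those of the forms of the same subunits found in most tissues. Cox7a2, the counterpart of Cox7a1, differed by −0.02 between day 8 and day 2, Cox8a by 0.38 and Cox6a1 by 0.08. The log2 difference of Cox7a1 exceeded that of Cox7a2 by 7.65 (SD 0.098) and that of Cox6a2 exceeded that of Cox6a1 by 1.51 (SD 0.098), while for Cox8b over Cox8a the excess was at least 10.34. Such a difference within the arrays does not depend on the 1 constant per array that scales them. Between day 20 and day 8 the difference of Cox7a1 exceeded that of Cox7a2 by 0.17 (SD 0.11) and that of Cox8b exceeded that of Cox8a by 0.06 (SD 0.10), whereas Cox6a2 exceeded Cox6a1 by 1.67 (SD 0.11).

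**Figure D2:**
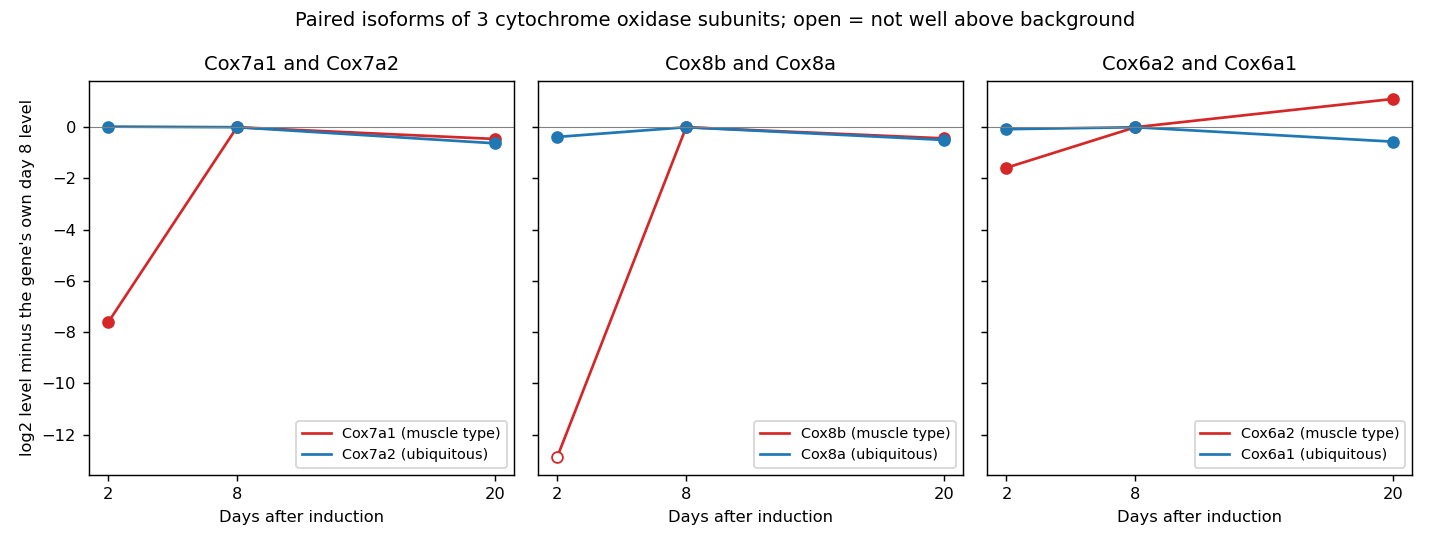
Log2 level minus the gene's own day 8 level against days after induction, 1 panel for each pair of a muscle-type subunit (red) and its form in most tissues (blue), 1 array per point, open where not well above background. All lines meet on day 8 because of that subtraction, whatever the levels. The red lines of Cox7a1 and Cox8b start far below the blue ones on day 2 and lie close to them on day 20, and that of Cox6a2 is above Cox6a1 on day 20.

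Other cytochrome oxidase subunits, 9 of 10 of them measured on all arrays, had 0 genes at least 2-fold apart between day 8 and day 2. All genes measured gave 13.8% higher and 12.9% lower. The subunits had a median log2 difference of 0.08 against −0.06 for all genes. Their median was −0.02 with the array median as the scale. Between day 20 and day 8 their median difference was −0.63, and 0.04 with the spike-in scale, on which that of all genes was 0.62. Cox7b, a small nuclear-coded subunit, was the only 1 of them at least 2-fold lower on day 20 than on day 2, at −1.06. Over all genes, 17.0% were lower in that comparison. Cox8c was not well above background on any day.

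Mb, the oxygen carrier, was also far above its day 2 signal, and of the whole set it had the largest difference between day 20 and day 8. Its intensity was 13.0 on day 2, which was just short of the call well above background, 2339 on day 8 and 11434 on day 20. The values were ordered by day with no return. On day 8 Mb was at least 188-fold higher than on day 2, and its day 2 level of −5.67 lay slightly above the lowest level called, so this bound is the plain ratio. Its log2 value of 7.55 was 5.15 with the normexp background correction. Day 20 was 3.35-fold higher than day 8 (log2 difference 1.75, SD 0.075), the 105th highest of 12321 genes, and at least 629-fold higher than day 2 (log2 9.30, and 7.01 with normexp). In the annotation Mb overlaps Apol6, an apolipoprotein L gene, which was at least 17.0-fold higher on day 8 than on day 2 and 0.34 higher on day 20 than on day 8. Whether any signal of Apol6 reaches the Mb probe was not tested. Cygb, a globin of many connective-tissue cells, was the 1 of 6 other globins measured on all days and was 3.20 higher on day 8 than on day 2 (SD 0.11).

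Detection drew the edge of the set at low signal. The lowest intensity called well above background among these probes was 82.1, that of the dimmer Ucp3 probe on day 8, and the highest not so called was the 13.0 of Mb on day 2.

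Ucp1, the uncoupling protein that defines thermogenic fat, stayed at background on all 3 arrays. Its intensities were 3.55, 6.56 and 5.34 on days 2, 8 and 20, with software error estimates of 3.28, 3.12 and 4.11, and its levels of −7.54, −6.60 and −7.44 were all under the lowest level well above background. The software's weaker call, positive and significant, was made on all 3 days. No fold is given, since both sides of every comparison were dim. A low signal from 1 probe in a whole culture cannot tell few expressing cells from little RNA in every cell.

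Ucp2, a relative found in many tissues, ran the other way. Its intensities on days 2, 8 and 20 were 4170, 1421 and 2207, and it was well above background throughout. Day 2 was the high array, and the later days had levels of 1.16 and 1.25. Day 8 was 2.82-fold lower than day 2 (log2 difference −1.49, SD 0.072) and day 20 minus day 8 was 0.09 (SD 0.069), but 0.76 with the spike-in scale. Day 20 minus day 2 was −1.40, a difference that was −0.71 with the spike-in scale and so under 2-fold there.

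Ucp3, known mainly from muscle and brown fat, gave opposite answers with its 2 probes. The brighter probe, A_66_P108247, had intensities of 3386, 1323 and 2086 on days 2, 8 and 20 and differed by −1.30 between day 8 and day 2 (SD 0.069). The dimmer probe, A_52_P380379, had 3.41, 82.1 and 214, lacked the call well above background on day 2, and against that day was at least 6.70-fold higher by day 8 and at least 11.9-fold higher by day 20. The 2 probes therefore order the days in opposite ways, and no direction is given for the gene. Between day 20 and day 8 the dimmer probe was 0.83 higher (SD 0.12) and the brighter 0.11 (SD 0.069).

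The brighter Ucp3 probe had nearly the profile of the Ucp2 probe. After each profile was centred on its own mean over the 3 days, these lay 0.17 log2 units apart (Euclidean distance), whereas the dimmer Ucp3 probe lay 5.34 from Ucp2 and 5.17 from its partner. RefSeq places the promoter windows of both genes on the plus strand of chromosome 7, Ucp3 at chr7:100472741-100472990 and Ucp2 downstream at chr7:100493108-100493357. Both Ucp3 probes carry the same transcript accession, and the probe sequences were not used here, so the source of the disagreement was not tested.

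**Figure D3:**
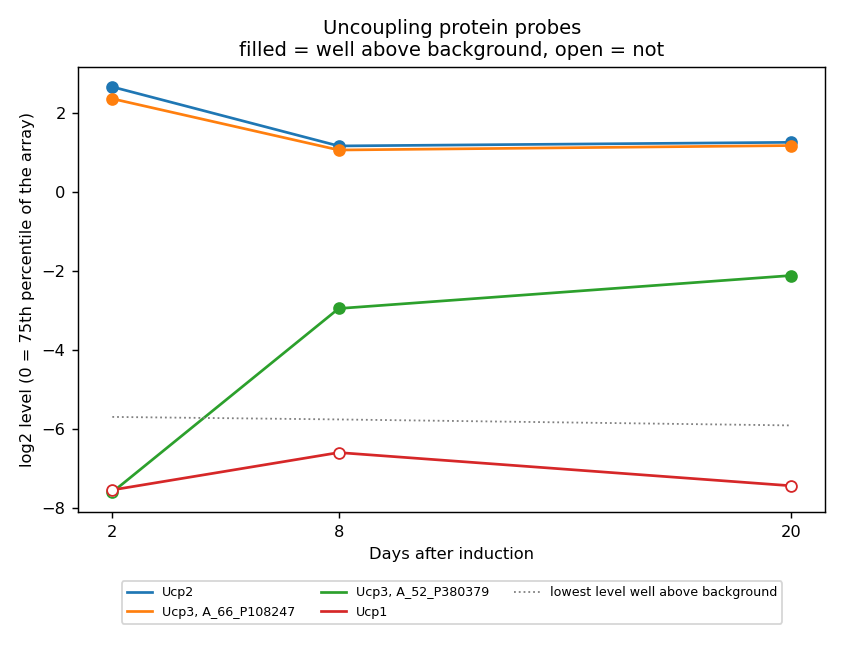
Log2 level against days after induction for the 4 probes of Ucp1, Ucp2 and Ucp3, 1 array per point, filled where well above background. The Ucp2 line and the line of Ucp3 probe A_66_P108247 run together, highest on day 2, while Ucp3 probe A_52_P380379 starts beside Ucp1 under the dotted line on day 2 and lies at −2.12 on day 20.

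Elovl3, an elongase of very long fatty acids that is induced by cold in brown fat, was above background early and not afterwards. Its intensities on days 2, 8 and 20 were 126, 2.89 and 3.86, and the call well above background was made for the first alone. Elovl3 was at least 10.3-fold lower on day 8 and at least 11.4-fold lower on day 20 than on day 2. These log2 bounds of −3.36 and −3.51 were −1.5 and −1.46 with the normexp background correction. Pitx3, a transcription factor gene that overlaps Elovl3 in the annotation, differed by −0.30 between day 8 and day 2. Of 6 other elongases, Elovl5 was 1.14 higher on day 8 than on day 2, Elovl6, which lengthens palmitate, differed by −1.34, and Elovl4 was at least 2.43-fold lower.

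Dio2 and Ckmt2 completed the set at background. Dio2 had intensities of 3.19, 2.59 and 6.60 on days 2, 8 and 20, and Ckmt2 had 2.74, 4.31 and 3.40. None of these was well above background and none supports an order of the days. The weaker call, positive and significant, was made for Dio2 on days 2 and 20 and for Ckmt2 on day 8.

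Counted over the set, day 8 against day 2 had 4 genes measured on both days, of which 2 were at least 2-fold higher (Cox7a1, Cox6a2) and 2 at least 2-fold lower (Ucp2 and Ucp3 by its brighter probe). Among all genes measured, 13.8% were at least 2-fold higher and 12.9% lower. Cox8b and Mb had bounds of 2-fold or more higher, as had 39.3% of the genes well above background on day 8 only, and Elovl3 had a bound lower, as had 30.3% of those so on day 2 only. The remaining 3 genes were well above background on neither day, as were 6861 of the 20142 genes with a level on every array. In day 20 against day 8, 6 genes were measured, 2 were at least 2-fold higher (Cox6a2, Mb) and 0 lower, where all genes gave 3.58% and 1.74%. No member had a bound there, while 24.9% of the bounds higher and 12.8% of the bounds lower over all genes reached 2-fold. Day 20 against day 2 repeated the counts of day 8 against day 2, with 15.5% of all genes higher, 17.0% lower, 55.4% of bounds higher and 33.3% of bounds lower. In that comparison 6967 of the 20142 genes were well above background on neither day. The arrays compared are those from which the set was drawn, and each array serves in 2 comparisons, so these shares are given beside the counts and nothing is read from them.

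**Figure D4:**
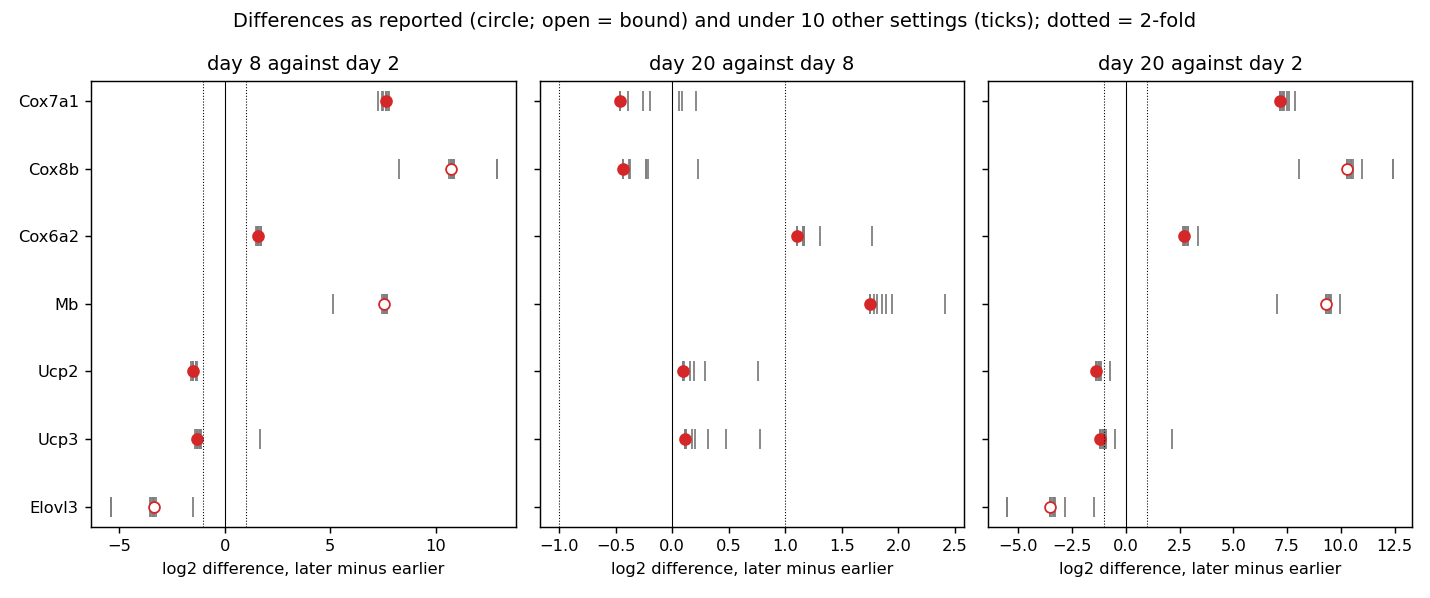
Log2 difference, later minus earlier day, of the 7 genes with a measured difference or a bound, as reported (red circle, open for a bound) and under 10 other processing settings (grey ticks), 1 panel per comparison. The differences of Cox7a1, Cox8b and Mb against day 2 stay far beyond the dotted 2-fold line, Cox7a1 and Cox8b lie on both sides of 0 between day 20 and day 8, and Ucp3 has a tick on the other side of 0.

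Profiles over the 3 days were also compared with those of the 11810 genes well above background on all arrays, by the same distance. Nearest to Cox7a1 were Gbp3, an interferon-induced GTPase gene (0.18 log2 units away, 7.55 higher on day 8 than on day 2), Acp5, an acid phosphatase (0.39), and Slc36a2, an amino acid transporter (0.48). Nearest to Cox6a2 were Casp1, the inflammatory caspase (0.016), Dnmt3l (0.076) and Map1a (0.084). Ucp2 lay nearest to Smim13, Sec22b and Slc3a2 (0.020 to 0.022), and the brighter Ucp3 probe to Grk5, Irs2 and Ccdc86 (0.0044 to 0.013). The distance covers 3 points per gene and is a description.

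The other brown and beige adipocyte genes were split. Of 24, 14 were measured on days 2 and 8, and 4 of these exceeded their day 2 level at least 2-fold on day 8 and 1 was lower, where all genes gave 13.8% higher and 12.9% lower. The list had a median of 0.03 against −0.06 for all genes, a median below 0 with 3 of 10 other settings. Cidea, a lipid droplet protein, had levels of −3.60, 2.09 and 3.04 on days 2, 8 and 20 and was 5.69 higher on day 8 than on day 2 (SD 0.12). Ebf2, a transcription factor of the brown lineage, was 1.18 higher, Kcnk3, a potassium channel gene, 1.12 and Zic1, a brown-fat marker, 1.07 (SD 0.19), while Gk, glycerol kinase, differed by −1.68. Fgf21, a hormone gene, was at least 7.0-fold lower. Prdm16, the regulator that commits cells to brown fat, was among 8 genes well above background on neither day, with levels of −6.76, −6.76 and −7.24. Over all genes, 6861 of 20142 were well above background on neither day 2 nor day 8. Ppargc1a, the coactivator of mitochondrial genes, was 0.68 higher on day 8 than on day 2 (SD 0.074) and 0.25 higher on day 20 than on day 8. Eva1a was at least 3.48-fold higher on day 20 than on day 8.

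Transcripts for several steps of the upstream signal were measured, but not the signal itself. Adrb3, the beta-3 receptor, had levels of −5.23, 4.84 and 4.40 on days 2, 8 and 20, near background on the first day and bright on the others. Adrb1 differed by 0.48 between day 8 and day 2 (SD 0.23) from a signal close to background. Prkaca, the catalytic subunit of protein kinase A, was 1.55 higher and Creb1, a transcription factor that the kinase phosphorylates, differed by −1.14. For thyroid hormone, the receptor gene Thrb was at least 6.02-fold higher on day 8 than on day 2 and a further 1.17 higher on day 20 than on day 8 (SD 0.12), Thra differed by 0.29 between day 8 and day 2, and Dio1, another activating deiodinase, differed by −1.65 (SD 0.19). Of the 16 genes of this list, 12 were measured on days 2 and 8, 2 of them at least 2-fold higher and 2 lower (13.8% and 12.9% of all genes), and the median was 0.33 against −0.06 for all genes.

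In the pathways next to Ckmt2 and the uncoupling proteins, single genes were 2-fold apart while the list medians were not. In creatine handling, 4 of 7 genes were measured, with Gamt, which makes creatine, 1.93 higher on day 8 than on day 2 and Alpl, the tissue-nonspecific phosphatase, at −1.99. Alpl was 1.12 higher on day 20 than on day 8. Ckb, Ckm and Gatm were not well above background on any day. In calcium cycling, 3 of 7 genes with a probe were measured, and Atp2a3, a calcium pump, was 1.37 higher on day 8 than on day 2 and 1.26 higher on day 20 than on day 8. Of 6 other mitochondrial carriers, 5 were measured and 0 were at least 2-fold apart between day 8 and day 2. All genes measured gave 13.8% higher and 12.9% lower. The carriers had a median of −0.25, and Slc25a27 differed by −1.15 between day 20 and day 2.

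Of 10 genes of mitochondrial biogenesis, all measured, 0 were at least 2-fold above their day 2 level on day 8 and 1 was below it (Nrf1, a transcription factor of respiratory genes, −1.32), and on day 20 the count lower than on day 2 was 4, with Ssbp1 at −1.32, Tfb2m at −1.10 and Tfam, which packs and transcribes mitochondrial DNA, at −1.01. Over all genes, 12.9% were lower on day 8 and 17.0% lower on day 20 than on day 2. The median was −0.34 on day 8 against day 2 and −0.62 on day 20 against day 2, where all genes gave −0.06 and −0.14. With the spike-in scale the second was 0.07, and that of all genes was 0.54. The count of 1 lower on day 8 depends on which probe of a gene is used. Of the other Nrf1 probes, 1 was also at least 2-fold lower on day 8 than on day 2, and 1 was higher by less than 2-fold. The other Ssbp1 probes were at least 2-fold lower there, against −0.80 for the probe used. So was 1 other Tfam probe, against −0.94 for the probe used. In the list of fatty acid oxidation genes under PPAR alpha, which holds Ucp2 and Ucp3 themselves, 15 of 18 were measured on days 2 and 8. Acot2, an acyl-CoA thioesterase, was the 1 at least 2-fold higher on day 8 (1.29), and Ucp2 and the brighter Ucp3 probe were the 2 lower. Among all genes measured, 13.8% were higher and 12.9% lower. Ehhadh, a peroxisomal oxidation enzyme, was at least 24.0-fold higher.

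**Figure D5:**
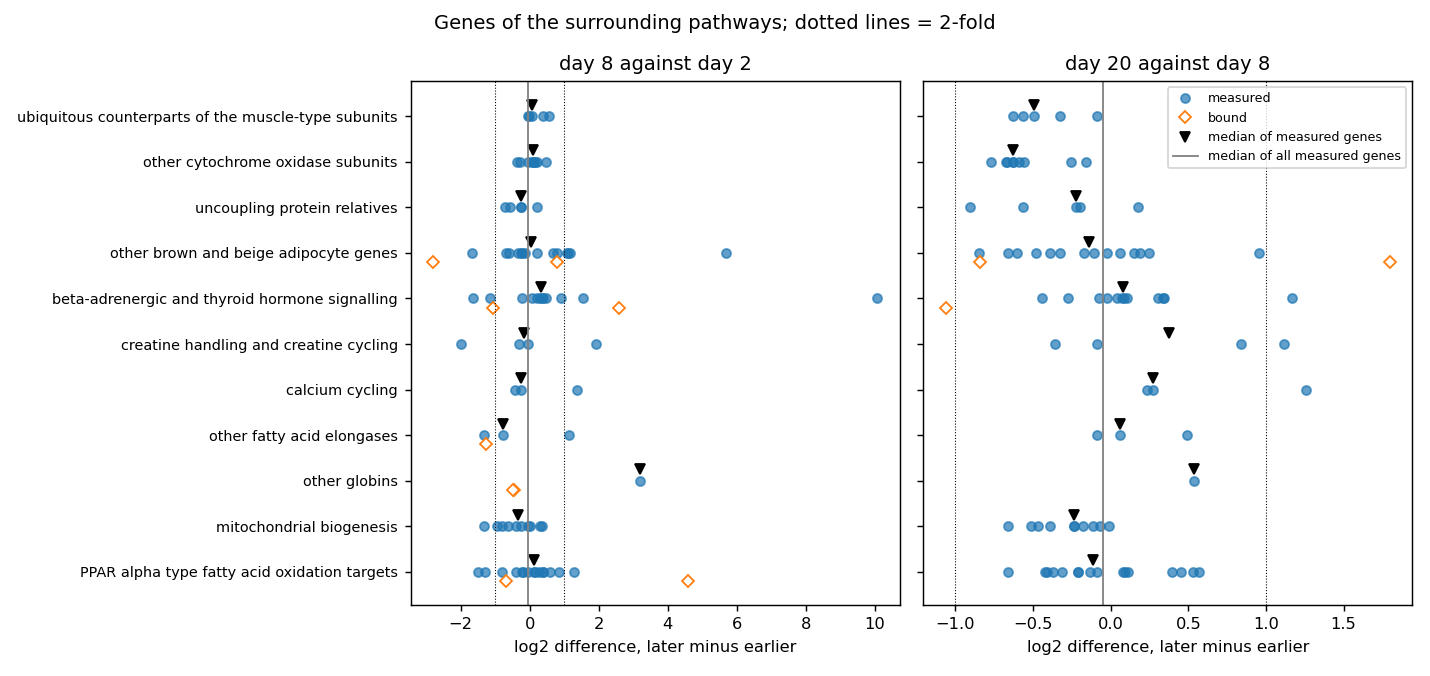
Log2 difference, later minus earlier day, of the genes of 11 pathway lists (blue, measured; orange, bounds), with the median of each list (triangle) and of all measured genes (grey line) and dotted lines at 2-fold; left, day 8 against day 2, right, day 20 against day 8. Single genes such as Adrb3 and Cidea lie far right on the left panel while most list medians lie within 2-fold of 0.

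Muscle markers were looked at because most of the genes are known from muscle. Of 22 skeletal muscle markers, 10, 11 and 11 were well above background on days 2, 8 and 20, and their summed level was 0.19, 1.1 and 1.32 on the log2 scale. For scale, 12489, 12836 and 12574 of the 20142 genes with a level on every array were well above background on those days. The master regulators Myod1 and Myog, the muscle creatine kinase Ckm, the fast myosins Myh1, Myh2 and Myh4 and the light chain Mylpf were not well above background on any day. Acta1, skeletal alpha-actin, was 3.64 higher on day 8 than on day 2 (SD 0.17), Des, desmin, 3.52 and Tnnc2, a troponin, 2.74, while Tnni2, another troponin, differed by −3.41. Of 10 heart markers, 2, 3 and 2 were well above background, with a summed level of −0.03, −0.17 and −0.21. Myl4, the brightest of them, weighed most in that sum, with levels of −0.23, −0.49 and −0.77. Tnnt2, a dimmer one, went the other way. It was 1.08 higher on day 8 than on day 2 (SD 0.21) and 1.44 higher on day 20 than on day 8 (SD 0.16). Of 11 preadipocyte and fibroblast markers, 10, 11 and 11 were well above background, with a summed level of 7.26, 7.99 and 8.79. The collagen gene Col1a2 was the brightest of them on each day, with levels of 5.89, 6.86 and 7.61. Between day 20 and day 8, 3 of the 11 were at least 2-fold higher and 1 lower (3.58% and 1.74% of all genes). Dlk1, the preadipocyte marker, was 1.47 higher there and Cd34 differed by −1.17. Between day 8 and day 2, Dlk1 differed by −0.46, but the median of the 10 markers measured was 0.87. Of these, 4 were at least 2-fold higher and 1 lower (13.8% and 12.9% of all genes). Between day 20 and day 2, 9 of the 10 measured were at least 2-fold higher and 0 lower (15.5% and 17.0% of all genes), with Dlk1 1.01 higher. The part of any such cells in the values of Cox7a1, Cox8b, Cox6a2 and Mb was not tested.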

How the data were processed

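The data were 3 single-colour Agilent arrays, 1 each for 2, 8 and 20 days after induction. The deposited intensity values are spot readings; the submitters' processing notes name Agilent Feature Extraction, version 10.7.1.1. They are background-corrected and not scaled between arrays, per the file headers. Deposited marks (other columns) flag spots well above background, saturated or outlying, per the file headers. In the deposited series table, log2 values equalled log2 of the intensity plus 1 constant per array, within 0.01 for 100% of probes, so their direction and scale are known; the constants were −9.37, −9.31 and −9.86, and the column medians −4.80, −4.69 and −4.89, for days 2, 8 and 20.

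Levels are log2 processed intensities less each array's 75th percentile, without control and outlier spots. RefSeq accessions, without version, were matched to a GRCm38.p6 gene table, which named 26581 of 39429 probes. The array design was annotated on an earlier build, so only RefSeq promoter coordinates are printed. For each gene, the probe with the highest mean level was used. At least 2-fold means an absolute log2 difference of 1 or more where both arrays were well above background; otherwise a bound is given. The technical SD pools the 31 nearest probes by signal. Calculations used Python 3.11.15, numpy 2.4.6, pandas 2.3.3, R 4.3.3 and limma 3.58.1, and were tested on simulated data. The normexp alternative (offset 50) used the median spot signal in place of the mean. With 1 array per day, their number limits the precision, and spread between cultures is unknown.

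The members, the 11 pathway lists and the marker lists were chosen with earlier results of these data known. Named genes are all members, up to 4 genes per list and direction at least 2-fold apart, up to 2 others per list, certain defining genes whatever their values, and the 3 nearest profiles of each member measured on all days. Overlapping genes and further markers were named after their values were seen.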

Additional observations from a re-analysis of the deposited data

How the results depend on the processing

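Besides the reported setting, 10 were planned (5 scalings between arrays, another background correction, the series table, a weaker and no detection filter, and the mean over the probes of a gene) and 1, the other Ucp3 probe, was added after seeing the data. The counts of the set at least 2-fold higher or lower, 2 each against day 2, moved in these cases. The count higher was 3 on both later days against day 2 with the weaker detection call and with the mean over probes. With no filter on dim probes, the count higher was 4 on day 8 against day 2 and 4 on day 20 against day 2, since Cox8b and Mb then count as measured, and the count lower was 3 on both. The count lower on day 8 against day 2 was 1 with the mean over probes and 1 with the other Ucp3 probe. The count lower on day 20 against day 2 was 1 with cyclic loess, 0 with spike-in scaling, 1 with the percentile over probes detected on all arrays, 1 with the mean over probes and 1 with the other Ucp3 probe. Ucp3 turned to 1.68 and 2.15 (mean over probes) and to at least 2.74 and 3.58 (other probe) on day 8 and day 20 against day 2, by the choice of probe alone. The brighter Ucp3 probe was at −0.93 (cyclic loess), −0.99 (percentile over detected probes) and −0.50 (spike-in) on day 20 against day 2. Cox7a1, Cox8b, Cox6a2, Mb and Elovl3 kept their direction and at least 2-fold against day 2 under all 10 planned settings, Cox7a1 on day 8 within 7.25 to 7.80, and Cox6a2 and Mb also on day 20 against day 8 (1.1 to 1.77 and 1.75 to 2.41). On day 8 against day 2 the bounds of Cox8b, Mb and Elovl3 were 10.72, 7.55 and −3.36, against 8.27, 5.15 and −1.5 with normexp, and 12.87, 7.55 and −5.39 with the weaker detection call.

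Over all genes, the share higher among the 2-fold calls of day 20 against day 8 was 67.3%, against 83.9% with median scaling, 83.0% with cyclic loess, 99.0% with spike-ins, 78.1% with normexp, 40.6% with the weaker detection call and 34.5% with no filter. The counts behind it were 441 higher (257 with normexp to 2091 with spike-ins) and 214 lower (21 with spike-ins to 1315 with no filter). On day 20 against day 2 the share was 47.7%, against 65.0% with cyclic loess, 84.4% with spike-ins and 59.8% with the percentile over detected probes. Its counts were 1840 higher (1660 with normexp to 3806 with spike-ins) and 2017 lower (703 with spike-ins to 3212 with no filter), and those of day 8 against day 2 were 1666 higher (1361 with normexp to 2616 with no filter) and 1555 lower (1030 with normexp to 2107 with no filter). The cause was not tested. No paired analysis was possible because each day has 1 array, and leaving out arrays was not an option either.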
